A study of Homo sapiens with 10 samples.

Results

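Protein phosphatase 2A (PP2A) subunit mRNAs were followed in 10 RNA-seq libraries from cells of the human osteosarcoma line U2OS. The genes were the 10 subunits PPP2CA, PPP2CB, PPP2R1A, PPP2R1B, PPP2R2A and PPP2R5A to PPP2R5E, each taken by an exact match of its symbol among the 25593 entries that every library lists. All 10 passed the filter on low values and are among the 14813 genes tested. The groups were the p53-KO line with SET siRNA (n = 2), the p53-KO line with control siRNA (n = 2), the p53 WT line with SET siRNA (n = 3) and the p53 WT line with control siRNA (n = 3). The WT line carried the control CRISPR construct, both lines were selected and cloned after a CRISPR construct, and siRNA was given for 96 hours in both. The lines are named as labelled: the design text calls the CRISPR target SET in one place and describes loss of p53 in another, and gene-level FPKM does not check an edit. Each line may be a single clone, so genotype and clone cannot be told apart. How the replicate cultures were separated is not stated, and each p-value covers only library-to-library spread.

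PP2A is a serine/threonine phosphatase built from a catalytic C subunit, a scaffold A subunit and a variable B subunit that directs the enzyme to its substrates. Each C and A position can be filled by an alpha or a beta isoform, and B subunits come in several families, of which PPP2R2 (B55) and PPP2R5 (B56) are represented here. SET is an endogenous inhibitor of PP2A and also a histone chaperone, and PP2A enzymes with B56 subunits are known to dephosphorylate p53. The series title frames the study around p53 and SET together. The question for the subunits was how their mRNA stood after SET loss in each line.

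SET mRNA was measured first. It was 14.9 and 14.9 FPKM (a level scaled for transcript length and library depth) in KO cells with SET siRNA, against 158 and 169.7 FPKM in KO cells with control siRNA. It was 12.3, 13.3 and 12.0 FPKM in WT cells with SET siRNA, against 121, 125 and 126 FPKM in WT cells with control siRNA. The groups lay far apart in both lines, and SET fell by 3.37 on the log2 scale in KO cells (limma adjusted p = 5.14e-09) and fell by 3.21 in WT cells (limma adjusted p = 1.26e-09).

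Depth implied by the authors' intervals, an estimate and not a count, was 14288107 to 21774804 fragments per library, and 13804 to 14153 genes reached FPKM 1. The authors' intervals had half-widths of 2.43% to 13.8% of the value for the subunits (median 5.31%). The pair of KO libraries with control siRNA stood apart: their median absolute log2 difference over the tested genes was 0.142, against 0.0701 to 0.0940 for the other pairs within a group. Of 8 mesenchymal or osteosarcoma line markers, 7 were at FPKM 1 or more in every library, and COL1A2 had group means of 0.0542 to 0.441 FPKM. The summed level of all 8 was 1545 to 1679 FPKM in KO cells with SET siRNA and 2055 to 2178 FPKM in KO cells with control siRNA. In the WT line it was 1259 to 1377 FPKM with SET siRNA and 1995 to 2043 FPKM with control siRNA. Of these markers, 7 were tested, and in each line 6 fell and 1 (TNFRSF11B) rose with SET siRNA. Of all tested genes 19.8% were called higher and 17.9% lower in KO cells, and 30.8% and 24.0% in WT cells. The 5 epithelial markers summed to 10.2 to 11.1 FPKM in KO cells with SET siRNA and 10.4 to 10.5 FPKM in KO cells with control siRNA, with KRT20 at 0 in both. They summed to 14.8 to 17.5 FPKM in WT cells with SET siRNA and 13.0 to 14.2 FPKM in WT cells with control siRNA. Of the 3 that were tested, EPCAM rose and CLDN4 fell with SET siRNA in KO cells, and EPCAM rose in WT cells. CDH1 passed the filter on low values only through the WT libraries with SET siRNA. It averaged 1.35 FPKM in them and 0.950 FPKM in WT cells with control siRNA, so its call in WT cells is given as a description only. The ratio of mean FPKM of EPCAM was 2.39 in KO cells (limma adjusted p = 0.000768) and 2.24 in WT cells (limma adjusted p = 0.000169). The 5 blood markers summed to at most 0.329 FPKM, with HBB at 0 throughout, and the 5 endothelial markers to at most 0.921 FPKM. The part of these marker shifts in the subunit results was not tested, and in bulk RNA fewer cells of a type and less RNA per cell cannot be told apart.

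The promoters of 3 subunits are shown because, of the 10 subunits with SET siRNA in the WT line, their mRNAs had the largest fall (PPP2CA), the next largest (PPP2R5D) and the largest rise (PPP2R5B), a choice made after these values were seen. Each is the 250 bases before an annotated start, 5′ to 3′, from RefSeq on GRCh38.p14, a build that need not be that of the deposited coordinates. Capitals mark matches on either strand to GGGCGG (the GC box), CCAAT, TGACGTCA (the cAMP response element) and CACGTG (the E box).
PPP2CA: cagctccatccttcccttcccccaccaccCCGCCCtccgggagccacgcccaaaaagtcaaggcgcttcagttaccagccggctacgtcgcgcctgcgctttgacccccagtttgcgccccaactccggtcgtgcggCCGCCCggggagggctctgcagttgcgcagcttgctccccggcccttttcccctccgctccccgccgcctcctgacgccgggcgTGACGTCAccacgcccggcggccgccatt
PPP2R5D: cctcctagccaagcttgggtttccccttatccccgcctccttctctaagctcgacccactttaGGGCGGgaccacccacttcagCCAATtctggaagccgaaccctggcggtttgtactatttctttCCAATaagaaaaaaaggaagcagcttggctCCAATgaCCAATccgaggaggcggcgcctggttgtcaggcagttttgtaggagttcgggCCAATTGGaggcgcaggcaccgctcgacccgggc
PPP2R5B: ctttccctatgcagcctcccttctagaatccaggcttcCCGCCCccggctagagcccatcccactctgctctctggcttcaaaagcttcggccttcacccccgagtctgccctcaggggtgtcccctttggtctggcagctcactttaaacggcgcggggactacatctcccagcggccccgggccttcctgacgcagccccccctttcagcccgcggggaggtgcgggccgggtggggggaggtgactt
They lie at chr5:134226074-134226323 (minus strand), chr6:42984320-42984569 (plus strand) and chr11:64924439-64924688 (plus strand), in the order printed. The PPP2CA stretch held 2 GGGCGG matches and 1 TGACGTCA match and was 71.2% G and C. The table lists a further PPP2CA start downstream, and the 250 bases before that one (chr5:134225555-134225804, minus strand) held 1 CCAAT match, 0 GGGCGG matches and 0 TGACGTCA matches. PPP2R5D held 6 CCAAT matches, of which CCAATTGG counts on both strands, and 1 GGGCGG match, while PPP2R5B held 1 GGGCGG match. Among 35116 promoter stretches of the same length in that table, 42.6% held GGGCGG, 32.0% CCAAT, 6.34% CACGTG and 1.65% TGACGTCA. These are letter matches, and no binding was measured.

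With SET siRNA in the KO line 5 of 10 PP2A subunits passed the test, all 5 lower, where 37.6% of all tested genes were called (19.8% higher and 17.9% lower). In the WT line 10 of 10 passed, 4 higher and 6 lower, where 54.8% of all tested genes were called (30.8% higher and 24.0% lower). The 5 that fell in KO cells were PPP2CA, PPP2R5A, PPP2R5C, PPP2R5D and PPP2R5E, and each of them also fell in WT cells. Called means a Benjamini-Hochberg adjusted p below 0.05 over all tested genes in limma, on log2(FPKM + 1). Whether the siRNA groups overlapped is also given for single subunits, as a description only. The share of all tested genes whose siRNA groups were separate was not counted, and groups of so few libraries can separate by chance. The median log2 difference of the 10 subunits was -0.15 in KO cells and -0.21 in WT cells, against 0.02 and 0.04 for all tested genes in those lines.

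**Figure D1:**
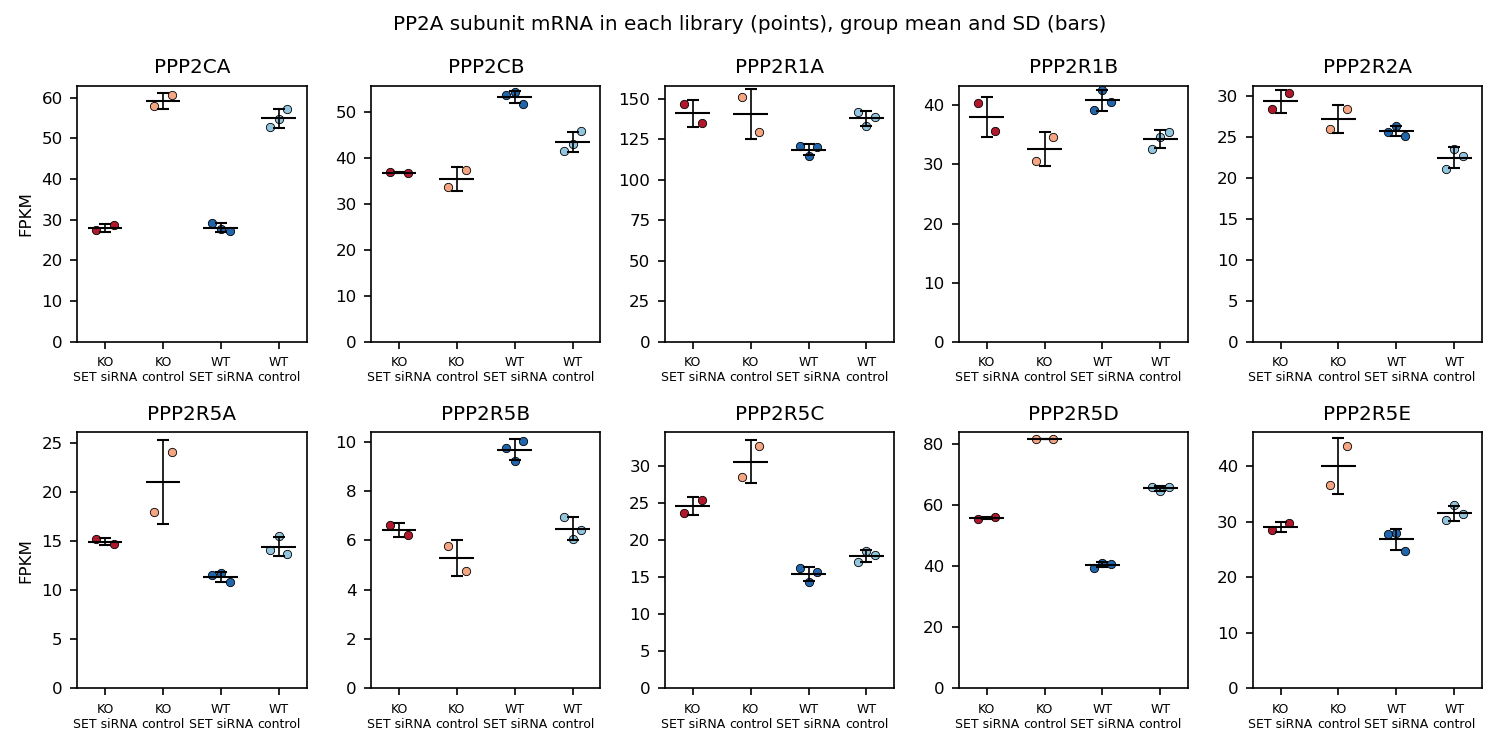
FPKM of each PP2A subunit in every library, by group, with points for libraries and lines with bars for group means and SD. PPP2CA and PPP2R5D sit lower with SET siRNA in both lines, with no overlap between the siRNA groups.

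The catalytic subunits moved apart. PPP2CA encodes the alpha catalytic subunit, which supplies most PP2A activity in many cells. It had 27.4 and 28.7 FPKM in KO cells with SET siRNA, against 57.9 and 60.6 FPKM in KO cells with control siRNA. It had 29.3, 27.7 and 27.2 FPKM in WT cells with SET siRNA, against 52.7, 54.8 and 57.3 FPKM in WT cells with control siRNA. The libraries with SET siRNA of both lines lay in 1 narrow band, well below every library with control siRNA. PPP2CA fell by 1.05 on the log2 scale (SE 0.0576, limma adjusted p = 5.49e-06) in KO cells, where its mean FPKM was 0.473 of the control level. It fell by 0.94 (SE 0.0470, limma adjusted p = 8.81e-07) in WT cells, where the ratio of means was 0.511. Of the 14813 tested genes, 158 had a lower log2 difference than PPP2CA in KO cells and 233 in WT cells. No alternative setting ended either call, and the log2 difference ranged over them between -1.09 and -1.02 in KO cells and between -0.98 and -0.91 in WT cells.

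PPP2CB, the beta catalytic subunit, whose protein is nearly the same as that of PPP2CA, did not follow it. It had 36.9 and 36.7 FPKM in KO cells with SET siRNA, against 33.6 and 37.3 FPKM in KO cells with control siRNA. It had 53.7, 54.2 and 51.7 FPKM in WT cells with SET siRNA, against 41.5, 42.9 and 45.7 FPKM in WT cells with control siRNA. The siRNA groups overlapped in KO cells and were separate in WT cells. PPP2CB rose by 0.29 on the log2 scale in WT cells (SE 0.0513, limma adjusted p = 0.00121). In KO cells its log2 difference was 0.05 (95% interval -0.09 to 0.20, limma adjusted p = 0.534). The GENCODE 29 transcripts of PPP2CA and PPP2CB shared 0 runs of 50 bases, and the same held for the scaffold pair and for every pair of B56 genes.

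The make-up of catalytic mRNA was also measured as a share. The shares and sums, here and below, use the same FPKM values as the single genes. Their tests are therefore no independent support for those calls. PPP2CA made up 43.2% ± 0.938 (SD, n = 2) of the summed PPP2CA and PPP2CB FPKM in KO cells with SET siRNA, against 62.6% ± 0.966 (SD, n = 2) in KO cells with control siRNA. It made up 34.5% ± 0.735 (SD, n = 3) in WT cells with SET siRNA, against 55.9% ± 0.228 (SD, n = 3) in WT cells with control siRNA. PPP2CA was thus the more abundant catalytic mRNA in every library with control siRNA, and PPP2CB in every library with SET siRNA. The mean difference of the share over both lines was -20.3 percentage points (exact permutation test within lines, two-sided, p = 0.0167, the smallest it can give, and 0.0267 adjusted over the 8 tests of shares and sums). The summed catalytic level was 64.3 and 65.4 FPKM in KO cells with SET siRNA, against 91.5 and 97.9 FPKM in KO cells with control siRNA. It was 83.0, 82.0 and 78.9 FPKM in WT cells with SET siRNA, against 94.3, 97.7 and 103 FPKM in WT cells with control siRNA. The sum was lower in every library with SET siRNA than in any library with control siRNA of the same line, by a mean of -23.5 FPKM (exact permutation test, two-sided, p = 0.0167, adjusted p = 0.0267).

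**Figure D2:**
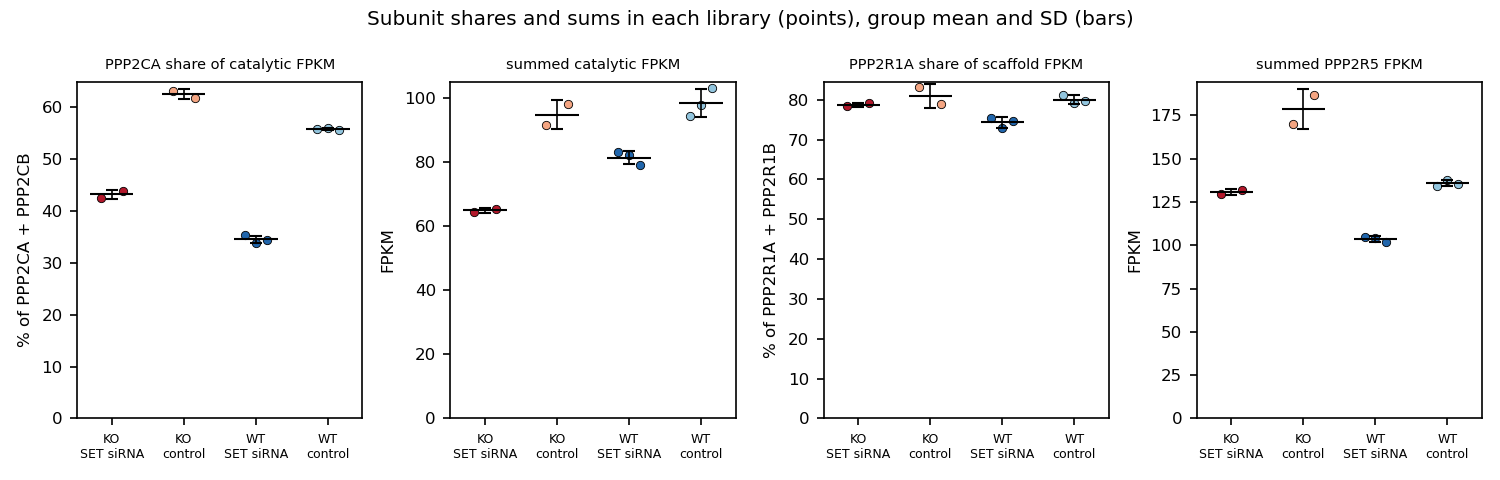
PPP2CA share of catalytic FPKM and PPP2R1A share of scaffold FPKM in percent, with summed catalytic and summed PPP2R5 FPKM, per library (points) and as group means with SD (lines with bars). The PPP2CA share lies between 33.8% and 43.9% in the libraries with SET siRNA, against 55.6% to 63.2% in those with control siRNA.

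The scaffold subunits had smaller log2 differences than PPP2CA. PPP2R1A, the alpha scaffold and the most abundant PP2A subunit mRNA in all 4 groups, had 147 and 135 FPKM in KO cells with SET siRNA, against 151 and 129.7 FPKM in KO cells with control siRNA. It had 121, 114 and 119.9 FPKM in WT cells with SET siRNA, against 142, 133 and 139 FPKM in WT cells with control siRNA. The siRNA groups overlapped in KO cells and did not in WT cells. PPP2R1A fell in log2 terms by 0.22 in WT cells (SE 0.0613, limma adjusted p = 0.0137). Its call ended without replicate 2 of the WT libraries with SET siRNA (-0.19, limma adjusted p = 0.0516). In KO cells the log2 difference was 0.01 (95% interval -0.16 to 0.18, limma adjusted p = 0.938).

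PPP2R1B, the beta scaffold, had 40.4 and 35.6 FPKM in KO cells with SET siRNA, against 30.6 and 34.6 FPKM in KO cells with control siRNA. It had 39.3, 42.6 and 40.6 FPKM in WT cells with SET siRNA, against 32.7, 34.7 and 35.6 FPKM in WT cells with control siRNA. All libraries with SET siRNA lay above those with control siRNA of their line, narrowly so in KO cells. PPP2R1B rose by 0.24 on the log2 scale in WT cells (SE 0.0652, limma adjusted p = 0.0107). In KO cells its difference of 0.21 (95% interval 0.03 to 0.40) missed the threshold with a limma adjusted p of 0.0612, and it passed without replicate 2 of the KO control libraries (0.30, limma adjusted p = 0.0322) or replicate 2 of the KO libraries with SET siRNA (0.30, limma adjusted p = 0.0412). The value of replicate 3 of the WT control libraries carries the authors' failed status for this gene, and the WT call held without that library. PPP2R1A made up 78.8% ± 0.510 (SD, n = 2) of scaffold FPKM in KO cells with SET siRNA, against 81.0% ± 3.00 (SD, n = 2) in KO cells with control siRNA. It made up 74.4% ± 1.35 (SD, n = 3) in WT cells with SET siRNA, against 80.1% ± 1.07 (SD, n = 3) in WT cells with control siRNA. The mean difference over both lines was -3.99 percentage points (exact permutation test, two-sided, p = 0.0333, adjusted p = 0.0381). That value averages -5.72 in WT cells, where the siRNA groups were separate, and -2.26 in KO cells, where they overlapped. It lost its call without replicate 1 of the KO libraries with control siRNA (-2.93) or replicate 1 of those with SET siRNA (-3.81).

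PPP2R2A is the B55 alpha subunit, which PP2A uses against substrates of cyclin-dependent kinases at mitotic exit. It had 28.4 and 30.3 FPKM in KO cells with SET siRNA, against 26.0 and 28.4 FPKM in KO cells with control siRNA. It had 25.7, 26.3 and 25.1 FPKM in WT cells with SET siRNA, against 21.1, 23.6 and 22.7 FPKM in WT cells with control siRNA. The siRNA groups nearly touched in KO cells and were clear of each other in WT cells. PPP2R2A rose by 0.19 on the log2 scale in WT cells (SE 0.0545, limma adjusted p = 0.0159). That call ended without replicate 1 of the WT control libraries (0.15, limma adjusted p = 0.0598) or replicate 2 of the WT libraries with SET siRNA (0.17, limma adjusted p = 0.0564). In KO cells the difference was 0.11 (95% interval -0.04 to 0.26, limma adjusted p = 0.231).

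The 5 B56 genes did not move as a block: PPP2R5D fell most, PPP2R5A, PPP2R5C and PPP2R5E fell by less, and PPP2R5B had positive differences. PPP2R5D encodes B56 delta. It had 55.5 and 56.0 FPKM in KO cells with SET siRNA, against 81.5 and 81.6 FPKM in KO cells with control siRNA. It had 39.5, 41.0 and 40.6 FPKM in WT cells with SET siRNA, against 65.8, 64.5 and 65.9 FPKM in WT cells with control siRNA. Replicates agreed closely in all 4 groups, and the siRNA groups were far apart in both lines. PPP2R5D fell by 0.54 on the log2 scale in KO cells (SE 0.0405, limma adjusted p = 2.40e-05) and fell by 0.68 in WT cells (SE 0.0330, limma adjusted p = 8.02e-07). No alternative setting ended either call.

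PPP2R5B encodes B56 beta and was the least abundant subunit in all 4 groups. It had 6.63 and 6.24 FPKM in KO cells with SET siRNA, against 5.79 and 4.77 FPKM in KO cells with control siRNA. It had 9.77, 9.22 and 10.1 FPKM in WT cells with SET siRNA, against 6.96, 6.06 and 6.43 FPKM in WT cells with control siRNA. Both lines showed higher values with SET siRNA in every library, and the gap was wide in WT cells. PPP2R5B rose by 0.51 on the log2 scale in WT cells (SE 0.0740, limma adjusted p = 0.000354), with a ratio of mean FPKM of 1.49. In KO cells the difference of 0.25 (95% interval 0.04 to 0.45) missed the threshold with a limma adjusted p of 0.0573. It passed without replicate 1 of the KO control libraries (0.37, limma adjusted p = 0.0137) and under quantile normalization (0.26, limma adjusted p = 0.0493).

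PPP2R5A encodes B56 alpha, a subunit known to oppose MYC stability. It had 15.2 and 14.7 FPKM in KO cells with SET siRNA, against 18.0 and 24.1 FPKM in KO cells with control siRNA. It had 11.5, 11.8 and 10.8 FPKM in WT cells with SET siRNA, against 14.1, 15.5 and 13.7 FPKM in WT cells with control siRNA. The siRNA groups were separate in both lines, but the KO control libraries differed widely from each other. PPP2R5A fell by 0.45 on the log2 scale in KO cells (SE 0.116, limma adjusted p = 0.0139) and fell by 0.32 in WT cells (SE 0.0944, limma adjusted p = 0.0183). The KO call ended without replicate 2 of the KO control libraries (-0.25, limma adjusted p = 0.0557) or without replicate 1 (-0.48, limma adjusted p = 0.0523) or replicate 2 (-0.43, limma adjusted p = 0.0706) of the KO libraries with SET siRNA. It also ended when only the KO libraries were fitted (limma adjusted p = 0.0722). The WT call ended without replicate 2 of the WT control libraries (-0.27, limma adjusted p = 0.0666) or replicate 3 of the WT libraries with SET siRNA (-0.28, limma adjusted p = 0.0596).

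PPP2R5C encodes B56 gamma, the B subunit best known for directing PP2A to p53. It had 23.8 and 25.5 FPKM in KO cells with SET siRNA, against 28.6 and 32.8 FPKM in KO cells with control siRNA. It had 16.3, 14.4 and 15.7 FPKM in WT cells with SET siRNA, against 17.1, 18.6 and 18.0 FPKM in WT cells with control siRNA. As a description only, the siRNA groups were separate but close in both lines. PPP2R5C fell by 0.30 on the log2 scale in KO cells (SE 0.0809, limma adjusted p = 0.0166) and fell by 0.20 in WT cells (SE 0.0660, limma adjusted p = 0.0291). The KO call ended without replicate 2 of the KO control libraries (-0.21, limma adjusted p = 0.0980) or replicate 1 of the KO libraries with SET siRNA (-0.25, limma adjusted p = 0.108), and when only the KO libraries were fitted (limma adjusted p = 0.0730). The WT call ended without replicate 2 (-0.17, limma adjusted p = 0.0939) or replicate 3 (-0.19, limma adjusted p = 0.0669) of the WT control libraries. It also ended without replicate 2 (-0.15, limma adjusted p = 0.107) or replicate 3 (-0.21, limma adjusted p = 0.0547) of the WT libraries with SET siRNA.

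PPP2R5E encodes B56 epsilon. It had 28.5 and 29.8 FPKM in KO cells with SET siRNA, against 36.6 and 43.6 FPKM in KO cells with control siRNA. It had 27.9, 28.0 and 24.7 FPKM in WT cells with SET siRNA, against 30.3, 33.0 and 31.4 FPKM in WT cells with control siRNA. The siRNA groups were separate in both lines, with a wider gap in KO cells. PPP2R5E fell by 0.44 on the log2 scale in KO cells (SE 0.0896, limma adjusted p = 0.00453) and fell by 0.23 in WT cells (SE 0.0732, limma adjusted p = 0.0261). The WT call ended without replicate 2 (-0.19, limma adjusted p = 0.0868) or replicate 3 (-0.23, limma adjusted p = 0.0548) of the WT control libraries, or replicate 3 of the WT libraries with SET siRNA (-0.17, limma adjusted p = 0.0923).

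Summed over the 5 genes, B56 mRNA was 129.6 and 132 FPKM in KO cells with SET siRNA, against 170.3 and 187 FPKM in KO cells with control siRNA. It was 105.0, 104 and 102 FPKM in WT cells with SET siRNA, against 134, 138 and 135 FPKM in WT cells with control siRNA. The sum was lower in every library with SET siRNA than in any control library of its line, by a mean of -39.8 FPKM over both lines (exact permutation test, two-sided, p = 0.0167, adjusted p = 0.0267). The make-up of the sum also differed, as a description: PPP2R5D held 42.6% ± 0.338 (SD, n = 2) in KO cells with SET siRNA and 45.7% ± 2.93 (SD, n = 2) in KO cells with control siRNA. Its share was 38.9% ± 1.17 (SD, n = 3) in WT cells with SET siRNA and 48.2% ± 1.19 (SD, n = 3) in WT cells with control siRNA. PPP2R5B held 4.92% ± 0.277 (SD, n = 2) in KO cells with SET siRNA and 2.97% ± 0.598 (SD, n = 2) in KO cells with control siRNA. In the WT line it held 9.33% ± 0.519 (SD, n = 3) with SET siRNA and 4.78% ± 0.390 (SD, n = 3) with control siRNA.

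**Figure D3:**
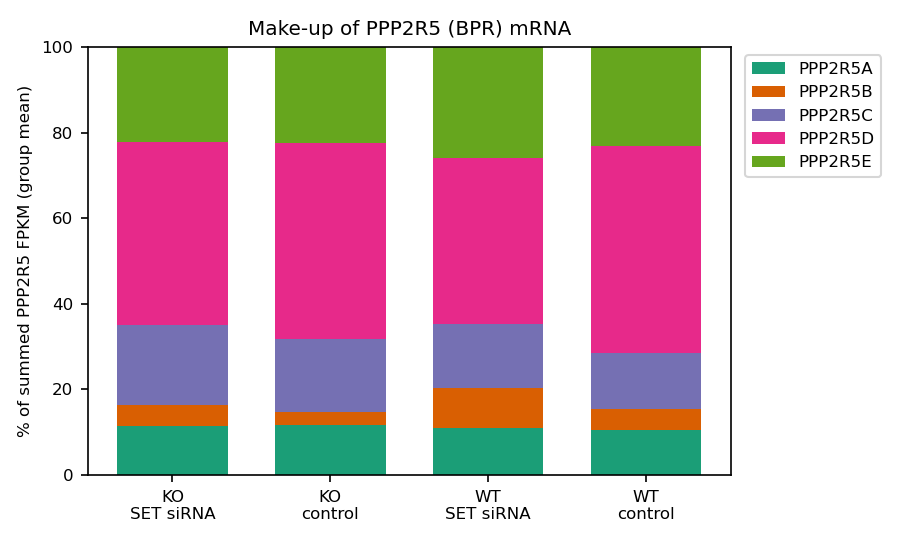
Share of each PPP2R5 gene in the summed PPP2R5 FPKM, in percent, as group means. PPP2R5D is the largest share in all 4 groups, at 42.6% and 45.7% in KO cells and 38.9% and 48.2% in WT cells, with SET siRNA and control siRNA in that order.

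A difference between the lines in the subunits' response was tested as an interaction, the log2 response in WT cells minus that in KO cells. Of the 10 subunits, 0 were called in limma, where 19.1% of all tested genes were called (10.5% higher and 8.6% lower), and 4 had an unadjusted p below 0.05, as did 36.3% of all tested genes. The 4 were PPP2CB, PPP2R1A, PPP2R5B and PPP2R5D. PPP2CB had a difference of 0.24 (95% interval 0.05 to 0.42, limma adjusted p = 0.0711). PPP2R5D had a difference of -0.14 (95% interval -0.26 to -0.02, limma adjusted p = 0.0872). PPP2R1A had a difference of -0.23 (95% interval -0.45 to -0.01, limma adjusted p = 0.125), and PPP2R5B one of 0.27 (95% interval 0.00 to 0.53, limma adjusted p = 0.135). For PPP2CA it was 0.11 (95% interval -0.06 to 0.28, limma adjusted p = 0.318). In this fit a call in 1 line only was not shown to be a difference between the lines for any subunit. Without replicate 1 of the KO control libraries, 4 of 10 subunits were called in the interaction, where 31.1% of all genes tested in that setting were called: PPP2CB (0.31, limma adjusted p = 0.0187), PPP2R1A (-0.34, limma adjusted p = 0.0165), PPP2R5A (0.34, limma adjusted p = 0.0362) and PPP2R5E (0.34, limma adjusted p = 0.0364). Without replicate 3 of the WT control libraries, PPP2CB was called (0.27, limma adjusted p = 0.0486), where 17.5% of all genes were.

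**Figure D4:**
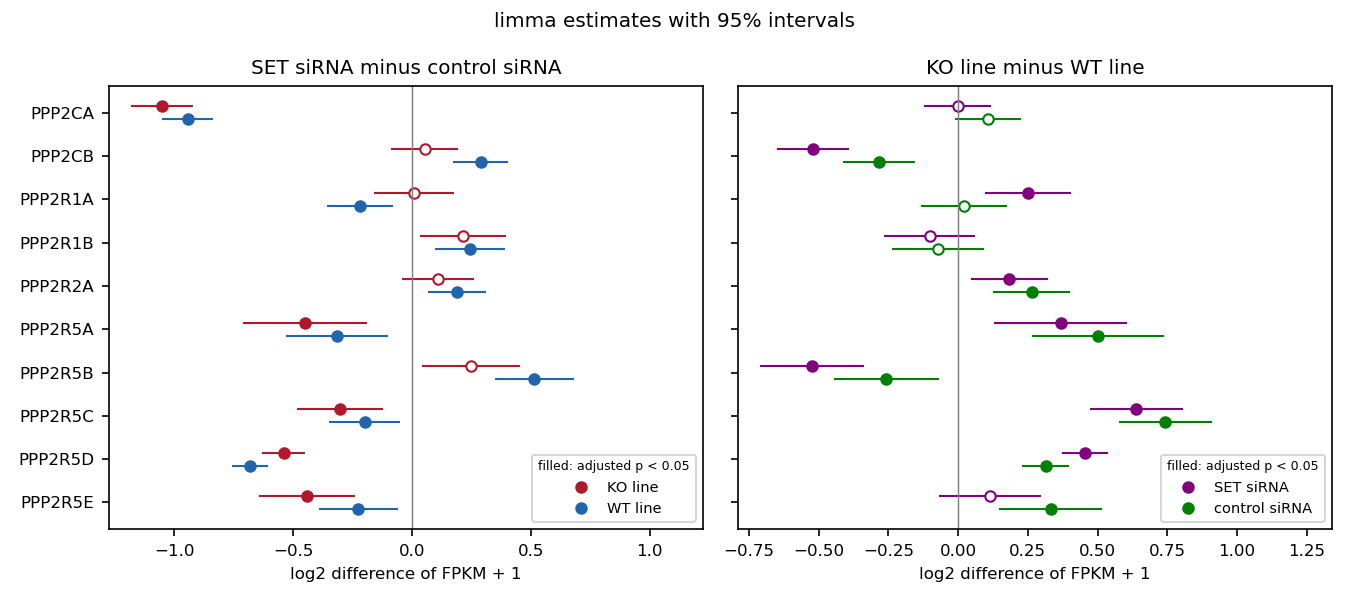
Log2 differences of FPKM + 1 with 95% intervals from limma, for SET siRNA minus control siRNA in each line and for the KO line minus the WT line under each siRNA. Filled points have an adjusted p below 0.05, and PPP2CA lies at -1.05 in the KO line and -0.94 in the WT line.

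The lines were then compared with each other. With SET siRNA 7 of 10 subunits differed between the KO and the WT line, 5 higher and 2 lower in KO cells, where 48.4% of all tested genes were called (23.6% higher and 24.8% lower). With control siRNA 7 of 10 also differed, 5 higher and 2 lower, where 47.9% of all tested genes were called (25.7% higher and 22.2% lower). PPP2R2A, PPP2R5A, PPP2R5C and PPP2R5D were higher in KO cells under both siRNAs, and PPP2CB and PPP2R5B were lower under both.

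PPP2R5C differed most. It was higher in KO cells by 0.64 on the log2 scale with SET siRNA (SE 0.0738, limma adjusted p = 0.000105) and by 0.74 with control siRNA (limma adjusted p = 6.47e-05), with ratios of mean FPKM of 1.59 and 1.71. PPP2R5D was higher in KO cells by 0.45 (limma adjusted p = 1.25e-05) with SET siRNA and by 0.31 (limma adjusted p = 0.000174) with control siRNA. PPP2R5A was higher in KO cells by 0.37 (limma adjusted p = 0.0176) with SET siRNA and by 0.50 (limma adjusted p = 0.00413) with control siRNA. PPP2R2A was higher in KO cells by 0.18 (limma adjusted p = 0.0324) with SET siRNA and by 0.26 (limma adjusted p = 0.00663) with control siRNA. The lines did not overlap for any of these 4 genes under either siRNA, as for 70.2% of all tested genes with SET siRNA and 63.1% with control siRNA. The PPP2R2A call with control siRNA ended without replicate 2 of the KO control libraries (0.20, limma adjusted p = 0.0562). With SET siRNA the PPP2R2A call ended without either KO library (0.14 and 0.23) or without replicate 1 or 3 of the WT libraries (0.18 and 0.17), at limma adjusted p of 0.0517 to 0.213. The PPP2R5A call with SET siRNA ended without either KO library (0.34 and 0.39) or without replicate 3 of the WT libraries (0.33), at limma adjusted p of 0.0512 to 0.0947.

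PPP2CB was lower in KO cells by a log2 difference of -0.52 (limma adjusted p = 7.91e-05) with SET siRNA and -0.28 (limma adjusted p = 0.00336) with control siRNA. PPP2R5B was lower by -0.52 (limma adjusted p = 0.000720) with SET siRNA and -0.26 (limma adjusted p = 0.0294) with control siRNA. PPP2R1A was higher in KO cells with SET siRNA, by 0.25 (limma adjusted p = 0.0142), and had a difference of 0.02 (95% interval -0.13 to 0.18, limma adjusted p = 0.813) with control siRNA. PPP2R5E was higher in KO cells with control siRNA, by 0.33 (limma adjusted p = 0.00900), and had a difference of 0.11 (95% interval -0.07 to 0.30, limma adjusted p = 0.279) with SET siRNA. PPP2CA had a difference of -0.00 (95% interval -0.12 to 0.12, limma adjusted p = 0.981) with SET siRNA and 0.11 (95% interval -0.01 to 0.23, limma adjusted p = 0.121) with control siRNA. PPP2R1B had a difference of -0.10 (95% interval -0.27 to 0.06, limma adjusted p = 0.277) with SET siRNA and -0.07 (95% interval -0.24 to 0.09, limma adjusted p = 0.438) with control siRNA. Without replicate 2 of the KO control libraries, PPP2R5B (-0.14, limma adjusted p = 0.241) and PPP2R5E (0.21, limma adjusted p = 0.0818) lost their calls with control siRNA. PPP2R5B also lost it without replicate 1 (-0.21, limma adjusted p = 0.0903) or replicate 3 (-0.26, limma adjusted p = 0.0548) of the WT control libraries. It lost it too with no filter on low values, with array weights and when only the libraries compared were fitted, at limma adjusted p of 0.0501 to 0.0916. PPP2R1A lost its call with SET siRNA without replicate 1 of the KO libraries (0.19, limma adjusted p = 0.124). With SET siRNA 4 of 10 subunits were called without replicate 1 of the KO libraries, where 35.5% of all genes were called. With control siRNA 4 of 10 were called without replicate 2 of the KO libraries, where 32.4% of all genes were.

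The lines were also compared by shares and sums. Over both siRNAs the PPP2CA share was 7.69 percentage points higher in KO cells (exact permutation test within siRNAs, two-sided, p = 0.0100, the smallest it can give, adjusted p = 0.0267). Summed B56 FPKM was 34.9 FPKM higher in KO cells (exact permutation test, two-sided, p = 0.0100, adjusted p = 0.0267). Summed catalytic FPKM differed by -10.0 FPKM (exact permutation test, two-sided, p = 0.0300, adjusted p = 0.0381), a call that held only without replicate 1 of the WT control libraries or replicate 2 of the KO control libraries among the 10 settings with a library left out, over which it ran from -11.6 to -8.43 FPKM. That value averages -16.4 FPKM with SET siRNA, where the lines were separate, and -3.64 FPKM with control siRNA, where they overlapped. The PPP2R1A share of scaffold FPKM differed by 2.70 percentage points, the mean of 4.44 with SET siRNA and 0.971 with control siRNA (exact permutation test, two-sided, p = 0.0800, adjusted p = 0.0800) and passed without replicate 2 of the KO control libraries (3.76, adjusted p = 0.0250).

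The subunits were ordered within each group by mean FPKM, a level scaled for length. PPP2R1A stood first and PPP2R5B last in all 4 groups. With control siRNA PPP2R5D stood at rank 2 and PPP2CA at rank 3 in both lines, clear of their neighbours. With SET siRNA PPP2CA stood in both lines at ranks 5 to 7 with PPP2R5E and PPP2R2A, a run in which each gene overlapped its neighbour. PPP2CB overlapped PPP2R1B in KO cells with SET siRNA, together at ranks 3 and 4, and stood at rank 2 in WT cells with SET siRNA, clear of its neighbours.

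As a description over the 10 libraries, the 5 genes of mean FPKM 5 or more whose log2 level followed that of PPP2CA most closely were TPM4 (Pearson r = 0.997), TMEM123 (0.996), SET (0.996), CYBRD1 (0.994) and RBM3 (0.993), out of 10469 ranked. TPM4 averaged 31.5 FPKM in KO cells with SET siRNA, against 122 FPKM in KO cells with control siRNA, and 29.7 FPKM in WT cells with SET siRNA, against 113 FPKM in WT cells with control siRNA. Among the other subunits r with PPP2CA ran from -0.83 for PPP2R1B to 0.87 for PPP2R5D. These points share the siRNA groups and their libraries.

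By the deposited coordinates, whose build is not given in the sources used here, the gene spans of PPP2CB, PPP2R1A, PPP2R2A and PPP2R5E overlapped no other entry. PPP2CA (chromosome 5, 133532148 to 133561950) overlapped MIR3661, listed at 0 in all libraries. PPP2R5B (chromosome 11, 64692143 to 64701950) overlapped GPHA2, at most 0.112 FPKM. PPP2R5D (chromosome 6, 42952330 to 42980080) overlapped MEA1, whose log2 difference with SET siRNA was -0.06 in KO cells (limma adjusted p = 0.644) and -0.23 in WT cells (limma adjusted p = 0.0213). PPP2R1B (chromosome 11, 111597632 to 111637169) overlapped SIK2, with 0.14 in KO cells (limma adjusted p = 0.0593) and -0.14 in WT cells (limma adjusted p = 0.0220). PPP2R5A (chromosome 1, 212458879 to 212535205) overlapped SNORA16B, with group means of 20.9 to 45.9 FPKM and a highest library of 91.8 FPKM. Its values were uneven between libraries, so these means are not steady levels. In KO cells its log2 difference with SET siRNA was 1.59, although its mean was 28.2 FPKM there, against 45.9 FPKM with control siRNA. SNORA16B had no call with SET siRNA in KO cells (limma adjusted p = 0.663) or WT cells (limma adjusted p = 0.585). PPP2R5C (chromosome 14, 102228135 to 102394329) overlapped LOC100507295, at most 0.334 FPKM, and LOC100653021, at most 2.12 FPKM. Strand use in counting is not stated, so reads of overlapping genes cannot be told apart with certainty.

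Other genes of the pathway, from lists assembled by function, were counted in the same fit. Of 9 further B subunits, 1 rose and 4 fell with SET siRNA in KO cells, and 1 rose and 3 fell in WT cells. Called were 55.6% of them in KO cells and 44.4% in WT cells, where 37.6% and 54.8% of all tested genes were called. The KO share counts PPP2R2B, which passed the filter only through the KO control libraries, so that share is a description only. PPP2R3A fell by 0.48 on the log2 scale in KO cells (limma adjusted p = 0.00276) and fell by 0.21 in WT cells (limma adjusted p = 0.0340). The WT call of PPP2R3A held among left-out WT libraries only without replicate 2 of those with SET siRNA, and otherwise had limma adjusted p of 0.0599 to 0.114. It ended also with no filter on low values (limma adjusted p = 0.0579). PPP2R2B, a low gene, averaged 0.804 FPKM in KO cells with SET siRNA and 1.85 FPKM in KO cells with control siRNA. It passed the filter on low values only through those control libraries, as no library of another group reached FPKM 1. Its log2 fall of 0.66 in KO cells, counted above as called, is therefore given as a description only. STRN4, a striatin subunit, rose by 0.40 in KO cells (limma adjusted p = 0.00789), with a WT difference of 0.01 (limma adjusted p = 0.882). The STRN4 rise lost its call without replicate 1 of the KO libraries with SET siRNA (0.38, limma adjusted p = 0.0509) or when only the KO libraries were fitted (limma adjusted p = 0.0524).

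Of 15 PP2A regulators, SET included, 2 rose and 2 fell in KO cells, and 5 rose and 6 fell in WT cells. These were 26.7% of the list in KO cells and 73.3% in WT cells, against 37.6% and 54.8% of all tested genes. The falls and both shares count SET itself, the target of the siRNA. PPME1, the methylesterase that removes the methyl group from the catalytic subunit, rose by 0.26 in KO cells (limma adjusted p = 0.00298) and by 0.41 in WT cells (limma adjusted p = 3.29e-05). The KO call of PPME1 ended when only the KO libraries were fitted (limma adjusted p = 0.0535). ANP32B had a difference of -0.08 in KO cells (limma adjusted p = 0.333) and fell by 0.39 in WT cells (limma adjusted p = 0.000165).

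Of 13 PP4 and PP6 subunits, which belong to related phosphatases, 1 rose and 5 fell in KO cells, and 3 rose and 4 fell in WT cells. The share called was 46.2% in KO cells and 53.8% in WT cells, against 37.6% and 54.8% of all tested genes. SMEK1, a PP4 subunit, had a difference of -0.09 in KO cells (limma adjusted p = 0.362) and rose by 0.64 in WT cells (limma adjusted p = 3.54e-05). PPP4R4 fell by 0.56 in KO cells (limma adjusted p = 0.0285) and fell by 0.50 in WT cells (limma adjusted p = 0.0140), and ANKRD28, a PP6 subunit, rose by 0.20 (limma adjusted p = 0.0370) and 0.48 (limma adjusted p = 8.02e-05) in those lines. The PPP4R4 call in KO cells ended without replicate 2 of the KO control libraries (-0.36, limma adjusted p = 0.178) or replicate 1 of the KO libraries with SET siRNA (-0.38, limma adjusted p = 0.190). It ended also with only the KO libraries, with array weights or with no filter on low values, at limma adjusted p of 0.0555 to 0.0802. The ANKRD28 call in KO cells ended in 5 of 10 settings with a library left out, with differences of 0.13 to 0.23, and also with only the KO libraries, with median-of-ratios scaling or with array weights, at limma adjusted p of 0.0606 to 0.140.

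Of 11 partners of PP2A in the STRIPAK complex, 2 passed the test in KO cells, both lower, and 4 rose and 2 fell in WT cells. The share called was 18.2% in KO cells and 54.5% in WT cells, against 37.6% and 54.8% of all tested genes. MST4 fell by 0.55 in KO cells (limma adjusted p = 0.000917) and fell by 0.20 in WT cells (limma adjusted p = 0.0330). The MST4 call in WT cells ended in 4 settings with a WT library left out, at limma adjusted p of 0.0662 to 0.114. SIKE1 fell by 0.51 in KO cells (limma adjusted p = 0.000994) and fell by 0.17 in WT cells (limma adjusted p = 0.0454). The SIKE1 call in WT cells ended in 7 settings with a library left out, at limma adjusted p of 0.0636 to 0.152, and with no filter on low values (0.0625) or without the trend (0.0538). CTTNBP2NL had a difference of 0.06 in KO cells (limma adjusted p = 0.375) and rose by 0.47 in WT cells (limma adjusted p = 2.21e-05).

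Of 7 other phosphatase catalytic subunits, 2 passed the test in KO cells, both lower, and 1 rose and 2 fell in WT cells. These were 28.6% of the list in KO cells and 42.9% in WT cells, against 37.6% and 54.8% of all tested genes. PPP1CC, a protein phosphatase 1 catalytic subunit, fell by 0.31 in KO cells (limma adjusted p = 0.00889) and fell by 0.42 in WT cells (limma adjusted p = 0.000256). The PPP1CC call in KO cells ended without replicate 1 of the KO libraries with SET siRNA (-0.29, limma adjusted p = 0.0563) or when only the KO libraries were fitted (limma adjusted p = 0.0617). PPP3CB, a calcineurin catalytic subunit, fell by 0.41 in KO cells (limma adjusted p = 0.00152) and had a difference of 0.06 in WT cells (limma adjusted p = 0.387). PPP3CC had a difference of 0.16 in KO cells (limma adjusted p = 0.177) and rose by 0.30 in WT cells (limma adjusted p = 0.00589).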

How the data were processed

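RNA-seq was done on 10 libraries of U2OS-derived lines. TruSeq libraries were made from TRIzol-extracted RNA, per the labels' protocols. bcl2fastq 1.8.4, TopHat2 2.0.4 and Cufflinks 2.0.2 are named in the submitters' processing notes. The authors deposited FPKM values for each gene, with an interval and a status per the file headers. The build, annotation and strand setting are not stated. Coordinates count from 1.

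The test took the 14813 of 25593 genes that reached FPKM 1 in 2 or more libraries, on log2(FPKM + 1), a scale that understates changes of low genes. One fit in limma 3.58.1 (R 4.3.3) covered the 10 libraries with 4 group means (eBayes with trend) and 5 contrasts, and called genes at a Benjamini-Hochberg adjusted p below 0.05 over all tested genes. Shares and sums, 8 tests in all, had an exact permutation test within strata. Fragment numbers implied by the authors' intervals lay within 0.05 of a whole number for 66.5% to 67.8% of low values, short of nearly all, so counts were not recovered and no count test was run. Other steps ran in Python 3.11.15 (pandas 2.3.3, numpy 2.4.6, matplotlib 3.10.9, scipy 1.17.1). The fit was tested on simulated data. The members and lists were chosen with earlier results of these data known. All members were named, with up to 3 genes of each other list by largest change with SET siRNA. Promoters were found for 8 of 10 members in the RefSeq table. The alternatives were a pseudocount of 0.1, a filter at FPKM 5 or none, quantile or median-of-ratios scaling, array weights, eBayes without trend, a replicate block, a fit of only the libraries compared, and leaving out each library.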

Additional observations from a re-analysis of the deposited data

Results flagged for a closer look

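No PP2A subunit was among the results picked out here, which are interactions called by limma among the related genes named in the report. Those genes were named for their largest change with SET siRNA in either line of these same data. Over all tested genes, 19.1% were called in the interaction. Each value is the log2 response to SET siRNA in WT cells minus that in KO cells. SMEK1 had 0.73 (limma adjusted p = 0.00204), PPP3CB 0.47 (limma adjusted p = 0.00787) and CTTNBP2NL 0.41 (limma adjusted p = 0.00492), and these 3 kept their calls in all 18 alternatives run. MST4 had 0.36 (limma adjusted p = 0.0445) and lost its call in 12 of 18 alternatives. SIKE1 had 0.34 (limma adjusted p = 0.0418) and lost it in 10. STRN4 had -0.38 (limma adjusted p = 0.0478) and lost it in 12. ANP32B had -0.31 (limma adjusted p = 0.0249) and lost it in 6, and ANKRD28 had 0.28 (limma adjusted p just below 0.05) and lost it in 13. With 1 library left out at a time, ANKRD28 was still called only without replicate 3 of the WT control libraries or replicate 1 of the KO control libraries, with values of 0.20 to 0.36 over the alternatives. MST4 was still called only without replicate 2 of the WT control libraries or replicate 1 of the KO control libraries (0.27 to 0.45). SIKE1 was still called only without those libraries or replicate 3 of the WT libraries with SET siRNA (0.24 to 0.44). STRN4 was still called only without replicate 1 of the KO control libraries (-0.53 to -0.24). ANP32B lost its call without replicate 1 of the WT libraries with SET siRNA, replicate 2 of the KO control libraries or either KO library with SET siRNA (-0.36 to -0.22 over the alternatives).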

How the results depend on the processing

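Of 940 values of the 10 subunits in 5 comparisons under the alternatives, 894 kept their side of the threshold, 35 lost a call, 11 gained one and 0 called values changed sign. Uncalled values near 0 could change sign, as for PPP2CA between lines with SET siRNA (-0.04 to 0.03). In KO cells 3 subunits were called with SET siRNA when only the libraries compared were fitted (PPP2R5A and PPP2R5C lost), where 21.6% of all genes were called, against 5 in the fit of all libraries. With a library left out, called subunits numbered 3 to 6 in KO cells and 7 to 10 in WT cells for SET siRNA, where 23.3% to 39.4% and 47.3% to 58.8% of all genes were called. They numbered 0 to 4 for the interaction (7.7% to 31.1% of all genes), and 4 to 7 for KO against WT with SET siRNA (34.9% to 52.0%) and with control siRNA (32.4% to 51.0%). The lowest count for SET siRNA in KO cells, 3, came without replicate 1 of the KO libraries with SET siRNA, where 23.3% of all genes were called. With the replicate block, 1 subunit was called in the interaction (PPP2R1A, -0.23, limma adjusted p = 0.0345, where 23.0% of all genes were called) and 6 in KO cells (PPP2R5B gained, limma adjusted p = 0.0233, where 40.7% of all genes were called). Samples sharing a number had correlations of -0.0833 to 0.228, with 3 of 13 pairs over 0.1, although 8 of 10 libraries correlated best with their own number, so the numbers were not taken as pairing. With a library left out, the catalytic sum ran from -11.6 to -8.43 FPKM for KO minus WT. The PPP2R1A share ran from 1.64 to 3.76 percentage points for KO minus WT and from -5.05 to -2.93 for SET siRNA. Over all genes, 5571 were called in KO cells, against 3202 with only the libraries compared, 3442 and 3683 without replicates 1 and 2 of the KO libraries with SET siRNA. The interaction had 2831 calls and 1136 to 4587 with a library left out, the most without replicate 1 of the KO control libraries. Median-of-ratios scaling gave 3974 higher and 4075 lower calls in WT cells, against 4564 and 3553 as deposited. Directions of the called subunits held under both scalings. The cause of these shifts was not tested. Values rest on 2 or 3 libraries a group, and the authors' intervals were widest for PPP2R5B, the lowest subunit, at 9.59% to 13.8% of its value.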
